A study of Mus musculus with 6 samples.

Results

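The genes of cholesterol and fatty acid synthesis were examined in cultures of mouse ependymal cells that lacked Edf1. The group was chosen by gene symbol from a list of 36 genes, and all 36 were found among the 22851 gene symbols of the count table and among the 14243 genes with enough counts to be tested. It holds 7 enzymes of the mevalonate arm, 11 enzymes that make squalene and carry it to cholesterol, 4 genes of SREBP control, 4 genes of sterol transport or of the LXR response, 4 genes of fatty acid synthesis and 6 desaturases and elongases. Radial glial cells, the progenitors at the ventricle wall, had been isolated from brains of newborn wild-type (WT) or Edf1 knockout mice, both on a C57BL/6J background. They were grown with serum and then kept without serum for 6 days, which turns part of them into multiciliated ependymal cells, and each genotype gave 3 libraries labelled biological replicates. The knockout was made in mice with CRISPR/Cas9, and no restriction to a cell type is given. The sources used here do not give the edited position, the number of mutant lines or whether brains were pooled, and nothing in them ties a replicate to 1 animal. p-values therefore measure the spread between these libraries.

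Cholesterol is built from acetyl-CoA through mevalonate, farnesyl diphosphate, squalene and lanosterol, and fatty acids are built from the same acetyl-CoA. SREBP proteins, encoded by Srebf1 and Srebf2, switch on the enzymes of both pathways when sterols in the endoplasmic reticulum are low. Scap escorts them to the Golgi for cleavage and Insig1 holds them back. When sterols are plentiful, LXR receptors instead raise exporters such as Abca1 and Abcg1. In brain most cholesterol is made locally, by astrocytes and by cells that form myelin. Edf1 bridges transcription factors to the basal machinery and also binds collided ribosomes.

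Total counts per library were 13071766 to 28087006, with WT replicate 2 the lowest. WT replicate 2 also stood apart in its counts: the chi-square per degree of freedom over genes was 8.38 and 9.63 against the other two WT libraries, 3.39 between those, and 2.97 to 4.24 between knockout libraries. Edf1 had 82.6, 85.9 and 80.2 CPM (read counts relative to the TMM-scaled library size) in WT replicates 1 to 3 and 9.84, 10.9 and 13.2 CPM in the knockout, so the labels and the targeted gene matched in all 6 libraries. Markers of some cell types moved with genotype more often than genes at large, of which 26.9% of those tested passed in either direction. The 12 multiciliated ependymal markers were all detected and all fell, with a summed level of 2635 to 2789 CPM in WT and 1554 to 1665 CPM in the knockout. Of 14 microglia markers 12 fell and none rose, and their sum was 2869 to 3080 CPM in WT and 1847 to 1920 CPM in the knockout. All 9 tested of 10 fibroblast and mural markers rose (Rgs5 had too few counts), from a sum of 850.2 to 910.5 CPM in WT to one of 1058 to 1173 CPM. Of 12 radial glia and astrocyte markers 3 rose and 2 fell (41.7% called). Of 8 tested oligodendrocyte markers 1 rose and 1 fell (25%), and of 7 tested neuron markers 2 fell (28.6%). The shares of the oligodendrocyte and neuron lists were thus near the 26.9% of all genes. The oligodendrocyte marker that rose was Cspg4, which is also counted among the fibroblast and mural markers. Over the alternatives the number called was 11 to 12 for ependymal and 11 to 13 for microglia markers. For fibroblast and mural markers it was 7 to 9, with 7 without WT replicate 1 or any knockout replicate. It was 5 to 9 for radial glia and astrocyte markers and 1 to 3 for neuron markers. For oligodendrocyte markers it was 1 to 2. The 1 came with the GC and length correction or when WT replicate 3, or knockout replicate 1 or 3, was left out. The oligodendrocyte genes Sox10, Mog and Enpp6 and the neuron genes Snap25 and Slc17a6 had too few counts to be tested, and the myelin gene Mobp had 0 counts in all 6 libraries. In bulk RNA, fewer cells of a type and less RNA per cell cannot be told apart, and the part of cell composition in the results below was not tested.

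Upstream sequences of 4 genes are printed because they carry the letters examined below. RefSeq entries (GRCm38.p6, the same assembly series as the GRCm38 build of the counts) were matched by symbol for 28 of the 36 genes. Hmgcs1, Srebf2 and Msmo1 are the 3 of the 28 whose promoter, from 250 bases before to 50 after the start, holds TCACNCCA, which is the core of the sterol regulatory element that SREBP binds (TCACNCCAC) without its last base. The full core was in Hmgcs1 alone of the 28. Mylip is the gene with the largest fall in the group. The 250 bases before the RefSeq start are given 5' to 3' on the strand of the gene. They lie at chr13:119690101-119690350 for Hmgcs1 (plus strand), at chr15:82147019-82147268 for Srebf2 (plus strand), at chr8:64733579-64733828 for Msmo1 (minus strand) and at chr13:45389492-45389741 for Mylip (plus strand). Capitals mark the full core TCACNCCAC in Hmgcs1, the shorter TCACNCCA in Srebf2 and Msmo1, and, in all 4 sequences, CCAAT boxes (bound by NF-Y) and GGGCGG boxes (bound by Sp1), each on either strand, so that CCAAT can read ATTGG and GGGCGG can read CCGCCC.
Hmgcs1: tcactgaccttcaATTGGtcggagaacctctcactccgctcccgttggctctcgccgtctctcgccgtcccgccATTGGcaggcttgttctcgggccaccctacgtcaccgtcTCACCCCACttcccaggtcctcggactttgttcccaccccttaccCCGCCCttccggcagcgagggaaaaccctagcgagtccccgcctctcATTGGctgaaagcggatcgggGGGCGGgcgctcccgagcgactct
Srebf2: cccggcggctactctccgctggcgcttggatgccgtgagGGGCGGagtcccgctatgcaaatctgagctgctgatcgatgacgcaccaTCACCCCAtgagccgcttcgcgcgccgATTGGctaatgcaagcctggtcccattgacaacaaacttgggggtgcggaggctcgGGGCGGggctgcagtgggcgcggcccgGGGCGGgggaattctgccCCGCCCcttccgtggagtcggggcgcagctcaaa
Msmo1: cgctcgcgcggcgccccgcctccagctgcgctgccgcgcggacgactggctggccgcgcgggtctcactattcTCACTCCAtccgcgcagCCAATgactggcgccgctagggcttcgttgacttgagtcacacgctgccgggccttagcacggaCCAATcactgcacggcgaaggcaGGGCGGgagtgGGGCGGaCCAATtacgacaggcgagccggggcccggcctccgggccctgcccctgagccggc
Mylip: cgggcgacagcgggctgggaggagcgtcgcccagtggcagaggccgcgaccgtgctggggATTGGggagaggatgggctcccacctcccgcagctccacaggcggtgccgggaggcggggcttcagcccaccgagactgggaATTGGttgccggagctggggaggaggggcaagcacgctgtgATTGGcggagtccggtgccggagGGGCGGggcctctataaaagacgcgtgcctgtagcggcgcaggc

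In Hmgcs1 the full core begins 137 bases before the start. The shorter TCACNCCA occurs 162 bases before the start of Srebf2 and 177 bases before the start of Msmo1, and every TCACNCCAC is by construction a TCACNCCA. These distances are counted from the RefSeq starts. In GENCODE M21 Srebf2 begins at 82147181 and Msmo1 at 64733792 (minus strand), both inside the printed stretches. Most printed bases of Msmo1, its TCACNCCA among them, therefore lie within the GENCODE gene, and the TCACNCCA of Srebf2 lies closer to the GENCODE start. The full core was in 1.24% of all 32851 RefSeq promoters, in 1.37% of the 11342 tested genes with an entry and in 3.57% of the 28 genes. The shorter string was in 4.36%, 4.51% and 10.7%. CCAAT was in 22 of the 28 (78.6%), against 37.4% of all promoters and 43.0% of tested genes. GGGCGG was in 23 of the 28 (82.1%), against 35.7% of all promoters and 67.1% of tested genes. The E-box CACGTG, a further sequence that SREBP can bind, was in 7 of the 28 (25%), against 7.15% of all promoters and 11.3% of tested genes. Fdft1, Abcg1 and Fads1, which also fell in the knockout, had no entry and were not searched. Among the 8 genes with an entry that fell in the knockout, 1 held the full core and 3 held the shorter string. Of the same 8, 7 held CCAAT, 7 held GGGCGG and none held CACGTG. Among the 20 others the numbers were 0 for the full core, 0 for the shorter string, 15, 16 and 7. A gene counted when any of its entries held the letters, whereas the share of all promoters counts single entries. The share of tested genes is therefore the like comparison. These are matches of letters in a short window and not sites shown to be bound.

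Loss of Edf1 went with small decreases in 11 of the 36 genes and with no call in the other direction, where 0 genes passed by edgeR, DESeq2 or limma voom and 1 (Hsd17b7) had an unadjusted p under 0.05 by edgeR. The genes that fell were Hmgcs1, Nsdhl, Fdft1, Msmo1, Srebf2, Abcg1, Mylip, Acss2, Fasn, Fads1 and Fads2, each past the 0.05 threshold (quasi-likelihood test of edgeR, Benjamini-Hochberg adjustment across the 14243 genes). Their knockout means were 70.7% to 89.3% of WT. Of all genes tested, 26.9% passed in either direction and 14.2% passed as lower, beside 30.6% of the 36, all of them lower. Without WT replicate 2, 15 of the 36 passed (41.7%), beside 30.1% of all genes in either direction. Without knockout replicate 1 the shares were 19.4% and 18.5%, so the distance from the overall share in either direction depended on the libraries used. All calls of the 36 in these 2 fits were lower. Counting lower calls alone, they were 15 of the 36 beside 2270 of 14419 genes without WT replicate 2. Without knockout replicate 1 they were 7 of the 36 beside 1454 of 14395 genes. The median log2 fold change of the 36 was -0.12, against 0.0029 over all genes tested, and 29 of the 36 values lay below 0, against 49.5% of all genes. The median size of the 11 decreases was 0.26 on the log2 scale, compared with 0.40 for all called genes in either direction. Not overlapping at all, with each knockout library below each WT library, were 14 of the 36, against 22.1% of all genes. Besides the 11 these were Idi1, whose groups nearly touched, Ebp and Insig1.

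**Figure D1:**
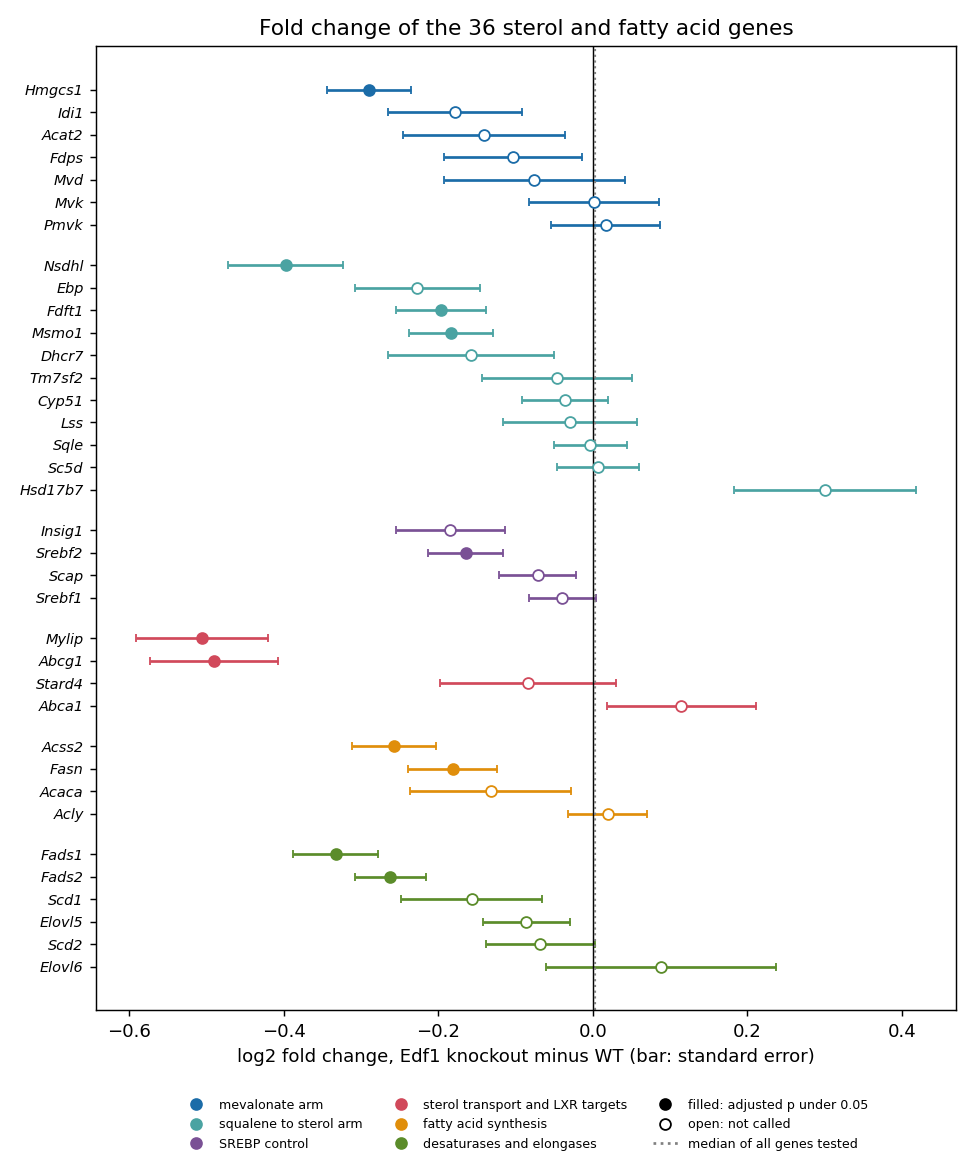
Log2 fold change (Edf1 knockout minus WT, horizontal axis, bars are standard errors) of each of the 36 genes, coloured by role. Filled points passed an adjusted p-value of 0.05 and all 11 of them lie to the left of 0, with Mylip (-0.51) and Abcg1 (-0.49) farthest.

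How firm these calls were differed between genes. Hmgcs1, Nsdhl, Abcg1, Mylip, Acss2, Fads1 and Fads2 passed under all 14 alternative fits. Fdft1, Msmo1, Srebf2 and Fasn passed with all 6 libraries under each other scaling, filter, tool and covariate, but lay close to the threshold and lost it when single libraries were left out. Without knockout replicate 1, 2 or 3 the number of genes that fell was 7 in each case. Calls over all genes dropped in the same fits, from 26.9% to 18.5%, 18.5% and 18.8% in either direction. The loss was therefore not particular to the 36 genes.

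In the mevalonate arm the gene of HMG-CoA synthase fell. Only Hmgcs1 was called of the 7 genes (14.3%, beside 14.2% of all genes called lower). The median log2 fold change of the arm was -0.10. Hmgcs1, which makes HMG-CoA and is a standard target of SREBP2, had 365, 334 and 378 CPM in WT, against 284, 294 and 304 CPM in the knockout. The highest knockout library thus lay below the lowest WT library. Its fold change was -0.29 (log2, SE 0.054), with an edgeR adjusted p-value of 0.00176. Idi1, which isomerises isopentenyl diphosphate, had 27.4 ± 2.92 CPM in WT, against 24.3 ± 0.899 CPM in the knockout (SD, n = 3 each here and below). Its groups did not overlap but nearly touched, with 24.94 CPM in the lowest WT library and 24.92 CPM in the highest knockout library. The adjusted p-value was 0.152 by edgeR, or 0.0310 without WT replicate 2. The kinases Mvk (19.97 ± 1.31 and 19.97 ± 1.05 CPM) and Pmvk (25.1 ± 0.420 and 25.5 ± 0.294 CPM) had nearly equal means in WT and knockout. Mvd, the decarboxylase, had a log2 fold change of -0.08 (SE 0.12), and Fdps, which makes farnesyl diphosphate, had -0.10 (SE 0.089). Acat2, the thiolase that starts the arm, had -0.14 (SE 0.10). Of the 31-base words of Acat2 transcripts 43.8% also occur in Acat3, and 27.9% of those of Fdps and 18.8% of those of Idi1 occur in other genes, so the counts of these 3 genes depend on how shared reads were assigned.

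Summed over the arm, the level was 495.4 to 524.7 CPM in WT and 426.1 to 449.6 CPM in the knockout. Hmgcs1 makes up most of that sum, so the other 6 genes contribute little to the gap.

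Of the 11 enzymes that make squalene and carry it to cholesterol 3 fell (27.3%), and the median of the 11 log2 fold changes was -0.05. Of all genes tested 26.9% passed in either direction and 14.2% passed as lower. Nsdhl, a dehydrogenase that takes part in removing methyl groups at carbon C-4 of the sterol ring, had 39.3, 41.9 and 43.5 CPM in WT, against 33.1, 32.4 and 29.3 CPM in the knockout. This was the largest fall among the synthesis enzymes, to 76.05% of WT, with a log2 fold change of -0.40 (SE 0.074) and an edgeR adjusted p-value of 0.00174. Msmo1, the oxidase that acts just before Nsdhl, had 106, 109.8 and 115 CPM in WT, against 94.7, 98.4 and 97.8 CPM in the knockout. The groups did not overlap, and the log2 fold change of -0.18 (SE 0.055) had an edgeR adjusted p-value of 0.0257, which was 0.0663 to 0.112 when WT replicate 3 or any of the knockout replicates was left out. Hsd17b7, the ketoreductase that acts with these enzymes, had the opposite sign. It had 17.97, 15.4 and 19.8 CPM in WT, against 25.6, 18.9 and 21.6 CPM in the knockout, so the groups overlapped. The difference of 0.30 on the log2 scale (SE 0.12) missed the threshold, with an edgeR adjusted p-value of 0.0794. Over the 14 alternatives the adjusted p-value ran from 0.0314 to 0.303 and passed in 4. Enzymes of the same demethylation complex therefore gave values of different sign, and the difference between them was not tested.

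Fdft1, squalene synthase, had 84.5, 83.8 and 91.3 CPM in WT, against 72.6, 77.2 and 76.8 CPM in the knockout. On the log2 scale the change was -0.20 (SE 0.058, edgeR adjusted p-value 0.0252), and the adjusted p-value was 0.0521 to 0.122 when any library but WT replicate 2 was left out. Of its exon bases 18.3% overlap exons of Ctsb on the opposite strand. Ctsb, a lysosomal protease gene, also fell, from 1455 to 1184 CPM (log2 fold change -0.30), and the strand setting of the counting is not given in the sources used here. Reads of Fdft1 and Ctsb may therefore not be told apart, 14.3% of the 31-base words of Fdft1 occur in another annotated gene, and its value is uncertain. Sqle, the epoxidase that is a rate-limiting step after squalene, had 312, 329 and 319 CPM in WT, against 307, 319 and 332 CPM in the knockout. These groups overlapped, with a log2 fold change of -0.0031 (SE 0.048, edgeR adjusted p-value 0.970). Lss (-0.03), Cyp51 (-0.04), Tm7sf2 (-0.05) and Sc5d (0.0072) had log2 fold changes near 0. Ebp, the sterol isomerase, had 27.4 ± 2.18 CPM in WT, against 23.3 ± 0.819 CPM in the knockout, without overlap, and missed the threshold (edgeR adjusted p-value 0.0556, 0.0385 without WT replicate 3). Dhcr7, which makes cholesterol from its last precursor, had -0.16 (SE 0.11).

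**Figure D2:**
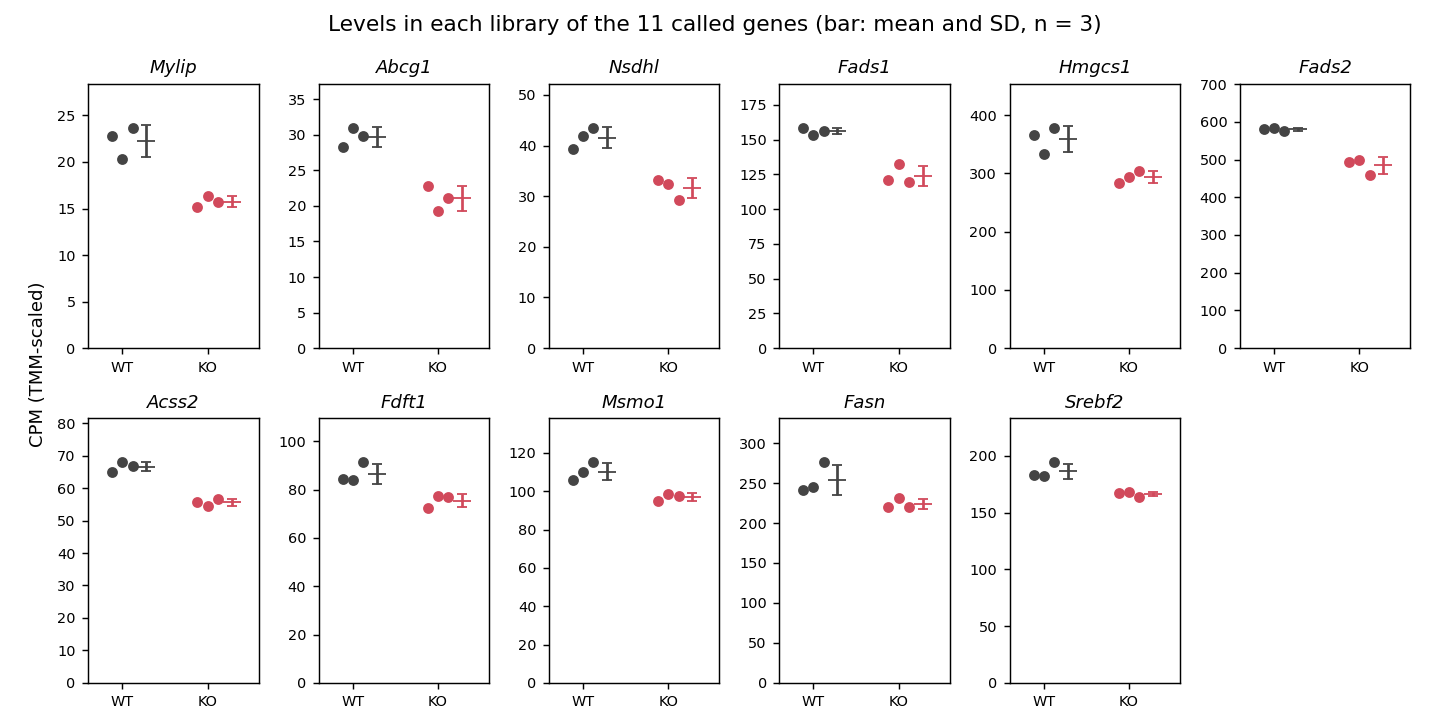
CPM (vertical axes from 0) of the 11 genes that fell, 1 point per library, with the mean and SD of each genotype beside the points. In every panel the 3 knockout points lie below the 3 WT points.

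Of the 4 SREBP control genes only Srebf2 fell (25%, beside 14.2% of all genes called lower), and all 4 values lay below 0. Srebf2, the SREBP gene more tied to cholesterol, had 183, 183 and 194 CPM in WT, against 167, 168 and 164 CPM in the knockout. The groups were apart and the log2 fold change was -0.16 (SE 0.049, edgeR adjusted p-value 0.0253). Leaving out any library but WT replicate 2 moved the adjusted p-value to 0.0556 to 0.106. Srebf1, the SREBP gene more tied to fatty acids, had 344, 356 and 347 CPM in WT, against 333, 344 and 341 CPM in the knockout. Here the groups overlapped, with knockout replicate 2 just above WT replicate 1, and the log2 fold change was -0.04 (SE 0.043, edgeR adjusted p-value 0.545). The counts do not separate the 2 products of Srebf1 that differ in their first exon. Scap had 299, 324 and 302.5 CPM in WT, against 296, 302.5 and 283 CPM in the knockout, with overlapping groups and a log2 fold change of -0.07 (SE 0.050, edgeR adjusted p-value 0.322). It was called only after correction for GC content and length (-0.165, edgeR adjusted p-value 0.0173). Insig1, itself a sensitive SREBP target, had 34.4, 38.1 and 38.1 CPM in WT, against 31.97, 33.0 and 32.1 CPM in the knockout. All knockout libraries lay lower, but the log2 fold change of -0.18 (SE 0.071) missed the threshold (edgeR adjusted p-value 0.0720).

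The 2 largest falls of the group were genes of the LXR response. Mylip, which encodes a ubiquitin ligase that removes lipoprotein receptors, had 22.8, 20.3 and 23.7 CPM in WT, against 15.2, 16.4 and 15.7 CPM in the knockout. Abcg1, a sterol exporter, had 28.2, 31 and 29.8 CPM in WT, against 22.8, 19.3 and 21.1 CPM in the knockout. In both the knockout libraries were well below all WT libraries, at 70.7% and 71.1% of the WT mean. The log2 fold changes were -0.51 (SE 0.086) for Mylip and -0.49 (SE 0.083) for Abcg1, with adjusted p-values of 0.000872 and 0.000861 by edgeR. Abca1, the exporter that is the usual partner of Abcg1 as an LXR target, had the opposite sign. It had 723, 552 and 787 CPM in WT, against 777, 724 and 734 CPM in the knockout, so that WT replicate 2 stood below all others. The log2 fold change was 0.11 (SE 0.097, edgeR adjusted p-value 0.418) and turned to -0.02 without WT replicate 2. Abca1 and Abcg1 are also known from microglia, and the microglia markers named above fell in the same libraries, whose part in these values was not tested. Stard4, a carrier of cholesterol between membranes, had 13.1 ± 2.02 CPM in WT, against 12.5 ± 0.538 CPM in the knockout.

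In fatty acid synthesis 2 of 4 genes fell (50%, beside 14.2% of all genes called lower), and the median was -0.16. Acss2, which makes acetyl-CoA from acetate, had 65.1, 67.9 and 66.7 CPM in WT, against 55.8, 54.5 and 56.5 CPM in the knockout. The spread within each genotype was small next to the gap, and the log2 fold change was -0.26 (SE 0.054, edgeR adjusted p-value 0.00394). Fasn, fatty acid synthase, had 241, 246 and 276 CPM in WT, against 220.2, 232 and 220.5 CPM in the knockout. WT replicate 3 was its highest library, and the log2 fold change of -0.18 (SE 0.057, edgeR adjusted p-value 0.0341) became -0.12 (edgeR adjusted p-value 0.126) without it. The call of Fasn was also lost without knockout replicate 1, 2 or 3 (adjusted p-values 0.0616 to 0.131 by edgeR), while the GC and length correction gave a larger fall of -0.299. Acly, which makes acetyl-CoA from citrate and so feeds the same pathway as Acss2, had 205 ± 8.34 CPM in WT, against 208 ± 7.41 CPM in the knockout. On the log2 scale this was 0.02 (SE 0.051). Acaca, the carboxylase that commits acetyl-CoA to fatty acids, had 87.4 ± 15.7 and 80.1 ± 4.72 CPM, with WT replicate 2 the lowest of all 6. Without that library its log2 fold change went from -0.13 to -0.26 (edgeR adjusted p-value 0.00109), and after the GC and length correction it was -0.23 (edgeR adjusted p-value 0.0166). Of the 31-base words of Acaca 33.4% occur in another annotated gene.

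Both front-end desaturases fell, and the stearoyl-CoA desaturases and elongases did not pass. The share called of these 6 genes was 33.3%, beside 14.2% of all genes called lower. Fads1 and Fads2 introduce the double bonds that turn dietary fatty acids into long polyunsaturated ones, and both genes lie on chromosome 19 (GRCm38), Fads2 at 10062765 to 10101746 on the minus strand and Fads1 at 10182888 to 10196877 on the plus strand. Fads1 had 159, 154 and 157 CPM in WT, against 121, 132 and 119 CPM in the knockout. On the log2 scale the change was -0.33 (SE 0.055, edgeR adjusted p-value 0.000726), the smallest adjusted p-value of the 36. Fads2 had 581, 584 and 576 CPM in WT, against 494, 499.5 and 459 CPM in the knockout, with a log2 fold change of -0.26 (SE 0.046, edgeR adjusted p-value 0.00118). WT libraries of both genes were nearly identical and every knockout library lay lower. Scd2, the main stearoyl-CoA desaturase gene of mouse brain, had 1320.0, 1135 and 1426 CPM in WT, against 1216, 1298 and 1191 CPM in the knockout. The groups overlapped through WT replicate 2, with a log2 fold change of -0.07 (SE 0.071, edgeR adjusted p-value 0.525). Scd1 overlapped in the same way, with 93.7, 79.0 and 104 CPM in WT, against 87.6, 86.7 and 75.3 CPM in the knockout (on the log2 scale -0.16, SE 0.091). Without WT replicate 2 both were called lower, Scd1 at -0.25 (edgeR adjusted p-value 0.00510) and Scd2 at -0.15 (edgeR adjusted p-value 0.00847). The elongase Elovl5 had -0.09 (SE 0.056) and Elovl6, the lowest gene of the group, had 0.09 (SE 0.15).

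Levels were compared between genes per kilobase of exon. Scd2 was highest in WT, at 237 CPM per kb, followed by Fads2 at 176 and Hmgcs1 at 78.2 CPM per kb. Scd1 stood at 18.9 CPM per kb, so every library of Scd1 lay far below every library of Scd2. Srebf1 (61.9 CPM per kb) lay above Srebf2 (26.0 CPM per kb) in every WT library. The lowest were Lss at 1.65 and Elovl6 at 0.923 CPM per kb. The length used was that of all annotated exons of a gene together, 10787 bases for Lss, so the order depends on the annotation. In CPM not divided by length, the WT mean of Lss (17.8) lay above those of Mvd (13.9) and Stard4 (13.1). Between these ends many neighbours in the order overlapped in their libraries, such as Abca1 (66.3) with Srebf1, and Mvd (7.47) with Mvk (7.47 CPM per kb). The genes that fell ranged in level from Fads2 at 176 to Abcg1 at 4.07 CPM per kb.

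**Figure D3:**
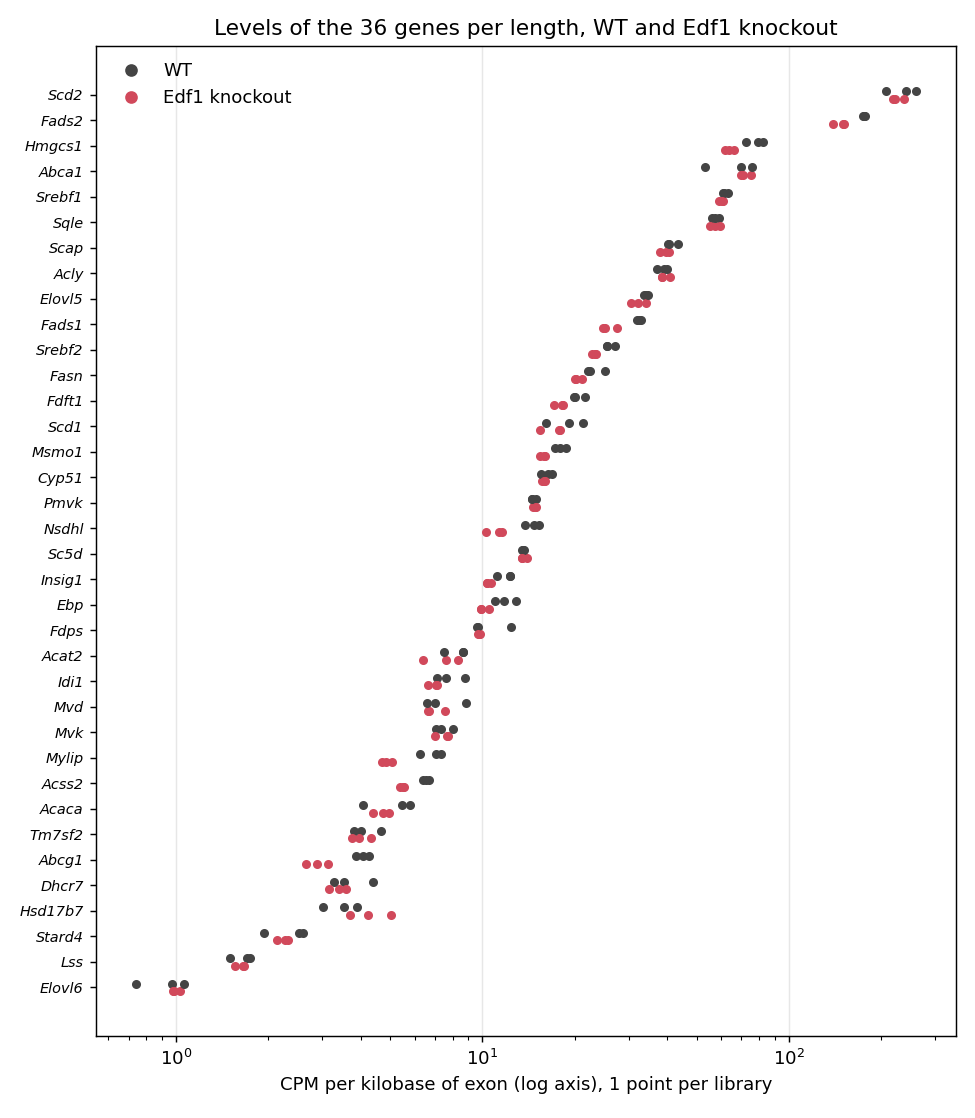
CPM per kilobase of exon (log axis) in each library, 1 row per gene in the order of the WT mean, WT in grey and knockout in red. Levels run from Scd2 (237 in WT) to Elovl6 (0.923 in WT), and the shifts between genotypes are small against the differences between genes.

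Other genes of these pathways were read from lists that do not overlap the 36. Of 17 further sterol and isoprenoid genes 2 fell and 4 rose, with a median of -0.03. Tmem97, a sterol-responsive protein of the endoplasmic reticulum, went from 38.8 ± 2.03 to 22.6 ± 0.232 CPM, or -0.78 on the log2 scale (SE 0.072, edgeR adjusted p-value 7.37e-06), larger than any of the 36. Ch25h and Cyp46a1, which hydroxylate cholesterol, rose by 0.37 each on the log2 scale (adjusted p-values 0.0285 and 0.0116 by edgeR). Ch25h lost its call when any library but WT replicate 2 was left out, and Cyp46a1 without WT replicate 1 or knockout replicate 3. Of 7 LXR receptors, partners and further targets only the receptor partner Rxra was called, at -0.26 (SE 0.077, edgeR adjusted p-value 0.0250). Its call was lost with DESeq2 and when WT replicate 1 or 3, or knockout replicate 1 or 3, was left out, with a highest adjusted p-value of 0.117 over the alternatives. The LXR genes themselves had log2 fold changes of -0.05 (Nr1h2) and 0.09 (Nr1h3), neither of which passed.

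Of 28 further genes of fatty acid synthesis, elongation and activation 27 could be tested, and 5 fell while 2 rose (median -0.05). Hacd1, a dehydratase of the elongation cycle, fell from 43.7 ± 5.46 to 28.1 ± 4.45 CPM, or -0.65 on the log2 scale (SE 0.12, edgeR adjusted p-value 0.00141). Acsl3, which activates long fatty acids, fell from 208 ± 1.59 to 151 ± 5.65 CPM, with a log2 fold change of -0.46 (SE 0.049, edgeR adjusted p-value 2.24e-05). Acacb, the second acetyl-CoA carboxylase, fell by 0.31 on the log2 scale (edgeR adjusted p-value 0.0231), and Mcat of the mitochondrial pathway fell by 0.29 (edgeR adjusted p-value 0.0155). Acacb lost its call when WT replicate 1 or 3, or knockout replicate 2 or 3, was left out, and Mcat without knockout replicate 1 or 3. The shares of these lists that passed were 35.3% of the sterol list, 14.3% of the LXR list and 25.9% of the fatty acid list, against 26.9% of all genes. These counts depended on single libraries, as did the share of all genes called, which ran from 18.5% to 30.1% when 1 library was left out. The sterol list went from 6 called genes to 3 without WT replicate 1 or knockout replicate 1, to 2 without knockout replicate 3 and to 9 without WT replicate 2. The LXR list went from 1 to 0 when WT replicate 1 was left out, and likewise for knockout replicates 1 and 3. The fatty acid list went from 7 to 3 without knockout replicate 2, to 4 without knockout replicate 3 and to 10 without WT replicate 2.

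**Figure D4:**
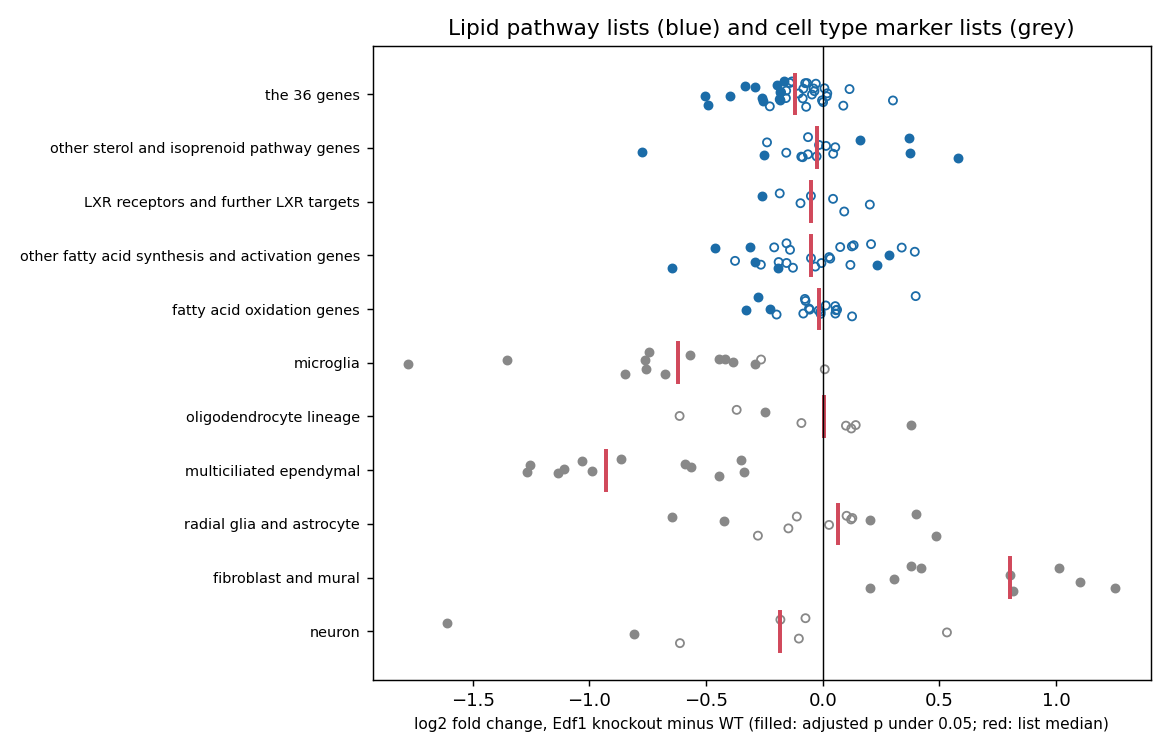
Log2 fold change (horizontal axis) of each tested gene in the 36, in 4 further lipid lists (blue) and in 6 cell type marker lists (grey), with list medians in red and genes past the threshold filled. The 36 genes lie between -0.51 and 0.30 with a median of -0.12, and the medians are -0.93 for ependymal, -0.62 for microglia and 0.80 for fibroblast and mural markers, some of which lie within the range of the 36.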

How the data were processed

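mRNA libraries from 3 WT and 3 Edf1 knockout cultures were analysed. The authors deposited whole-number read counts per gene symbol, 1 column per library. FastQC 0.11.2, cutadapt 1.11, HISAT2 2.1.0 and the build GRCm38 are named in the submitters' processing notes. The counting program, annotation, strand setting and treatment of multi-mapping reads are not given in the sources used here. Counts were filtered with filterByExpr, scaled with TMM and tested with edgeR 4.0.16 (quasi-likelihood test, genotype only, Benjamini-Hochberg over all 14243 genes, threshold 0.05) in R 4.3.3. The fit was also run on counts simulated from its own estimates of level and spread. That run cannot show whether the calls hold in these libraries. Alternatives were other scalings, filters of at least 1 count in all or a mean of 50, DESeq2 1.42.0, limma voom (limma 3.58.1), a replicate block, a GC and length correction, a threshold of 0.01 and leaving out each library. Exon lengths, overlaps and 31-base words came from GENCODE M21 (GRCm38), and promoters from RefSeq (GRCm38.p6). All 36 genes are named, called ones and SREBP control genes with every library, and at most 4 called genes of each other list. A further gene that this rule would name is not reported here. Ctsb was added because it overlaps Fdft1, and the promoters of Hmgcs1, Srebf2 and Msmo1 were picked after the motif search. Genes and lists were chosen with earlier results of these data known.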

Additional observations from a re-analysis of the deposited data

How the results depend on the processing

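Leaving out single libraries moved the number of the 36 genes called from 11 to between 7 and 15 (7 to 15 lower and 0 to 1 higher). Over the same fits the share of all genes called ran from 18.5% to 30.1%. The 15 (41.7%) were reached without WT replicate 2, where 30.1% of all genes were called in either direction. The LXR list had 0 calls with DESeq2 and 2 with no filter beyond 1 count, with the replicate block or with the GC and length correction, against 1. At an adjusted p-value under 0.01 there were 7 genes, all lower, while over all genes 2213 passed (1248 lower, 965 higher). The replicate number as a block and the GC and length correction each added 1 higher gene, Hsd17b7. All 11 genes stayed called under each alternative that kept the 6 libraries and the 0.05 threshold. With that correction the median log2 fold change was -0.0918 for the squalene to sterol arm, -0.27 for fatty acid synthesis and -0.0028 for the further fatty acid genes, which had -0.0843 with a mean of 50 counts. Across the fits without 1 library the medians ran from -0.157 to -0.0868 for the 36 genes, -0.15 to 0.0092 for the mevalonate arm, -0.102 to -0.0241 for the squalene to sterol arm, -0.224 to -0.0751 for fatty acid synthesis, -0.203 to -0.0666 for desaturases and elongases, -0.0602 to -0.0146 for the further sterol genes and -0.0855 to -0.00561 for the further fatty acid genes. The mevalonate arm was above 0 only without WT replicate 2, and the cause was not tested.

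Genes near 0 changed sign, none of them called in the reported fit. Sqle was 0.0108 with library size alone and 0.0019 with a mean of 50 counts, and Sc5d was -0.0131 after the GC and length correction. Without single libraries the ranges were -0.0318 to 0.0515 for Mvk, -0.15 to 0.0414 for Mvd, -0.161 to 0.0136 for Fdps, -0.0297 to 0.024 for Sqle, -0.0864 to 0.0102 for Lss, -0.10 to 0.028 for Tm7sf2, -0.0113 to 0.0192 for Sc5d, -0.0192 to 0.224 for Abca1, -0.012 to 0.0463 for Acly, -0.15 to 0.0101 for Scd2 and -0.0246 to 0.187 for Elovl6. The cause was not tested.

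For the replicate pairing, deviations from the genotype mean correlated across genes between libraries of equal number by 0.0693, 0.0604 and 0.0372, so no pairing was assumed, although 6 of 6 libraries correlated best with their own number. The replicate block gave 4065 calls over all genes against 3833, and 12 of the 36 genes against 11. Depth limits the low genes most: the smallest count of Elovl6 was 61 reads.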

Other observations

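Fatty acid oxidation, which runs against synthesis, was read from 19 genes. Of these 3 fell and 16 were not called (15.8% called, against 26.9% of all genes), with a median log2 fold change of -0.02. The number called was 5 without WT replicate 2 and 5 with the GC and length correction. Etfa, which passes electrons from the acyl-CoA dehydrogenases, went from 283 ± 25 to 225 ± 13.2 CPM (log2 fold change -0.33, SE 0.066, edgeR adjusted p-value 0.00273). Cpt2, of the carnitine shuttle, went from 62.1 ± 3.07 to 51.1 ± 1.74 CPM (-0.28, edgeR adjusted p-value 0.00474), and Echs1, a hydratase, from 144 ± 6.99 to 123 ± 5.46 CPM (-0.23, edgeR adjusted p-value 0.0111, 0.0724 without knockout replicate 1). The summed level of the 19 genes was 2797 to 2998 CPM in WT and 2719 to 2819 CPM in the knockout, so the genotypes overlapped.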
